A study of Mus musculus with 20 samples.

Results

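Mt1 and Mt2 encode the mouse metallothioneins 1 and 2, small cysteine-rich proteins that bind zinc, copper and cadmium. They were followed on 20 arrays made from the mouse EDL (extensor digitorum longus), a muscle of fast fibres in the lower hindlimb. The members were the probes that the array design names Mt1 or Mt2. These were 3 probes of 41174 probe names on the array, 2 for Mt1 and 1 for Mt2. Both genes were among the 15719 genes, of 27376 gene names, that passed the filter on dim probes. The pair was chosen for its own values in the 4 groups of arrays, so its levels and differences are given as a description and without a test.

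The arrays came from 10 male C57Bl6 mice that were 8 weeks old when rAAV6 vectors were injected into the hindlimb muscle, in 30 µL. Right legs received vectors for HDAC4 with the change D832N and HDAC5 with the change D861N, at 2.5e+10 vector genomes each, called dnHDAC4/5 here because both changes are used as dominant negatives. Left legs received an empty vector, so every muscle carried an rAAV6 vector. After 4 weeks, 5 animals were given Scriptaid, a hydroxamate inhibitor of histone deacetylases, and the other 5 its vehicle with 5% DMSO, by intraperitoneal injection. The 4 groups of 5 arrays are HS (right legs with dnHDAC4/5 of Scriptaid animals), ES (left legs with the empty vector of the same Scriptaid animals), HV (right legs with dnHDAC4/5 of vehicle animals) and EV (left legs with the empty vector of the same vehicle animals). HS 2 stands for replicate 2 of HS, and equal numbers in HS and ES, or in HV and EV, mark legs of 1 animal. The ES titles name the vehicle, but the treatment entry, the description and the animal identifiers give Scriptaid and were followed. The labels give no Scriptaid dose, no time between injection and dissection and no promoter for the vectors. The muscle kept its own Hdac4 and Hdac5 genes.

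Metallothionein transcription rises with zinc, other metals, glucocorticoids, cytokines and oxidants. Zinc acts through MTF-1, a zinc-finger factor that binds metal response elements in the Mt1 and Mt2 promoters. Both genes are known to be induced in muscle that wastes, and both proteins hold and release zinc and take up reactive oxygen.

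The genes sit side by side on chromosome 8 of GRCm38.p6 in the order Mt4, Mt3, Mt2, Mt1, all on the plus strand. Mt2 spans 94172618 to 94173567 and Mt1 spans 94178883 to 94180327, which leaves 5315 bases between them. The 300 bases of RefSeq promoter sequence (250 before and 50 after the annotated start) are shown for both genes. Whether sites in them have a part in the differences given below was not tested. The Mt1 window is anchored on an annotated start that lies inside the gene's span. Whether muscle uses that start was not tested, so the positions and counts of Mt1 sites hold for this window only. Capitals mark metal response element cores, searched on both strands as TGCACNC and TGCGCNC.
Mt1 promoter, chr8:94178839-94179138, plus strand: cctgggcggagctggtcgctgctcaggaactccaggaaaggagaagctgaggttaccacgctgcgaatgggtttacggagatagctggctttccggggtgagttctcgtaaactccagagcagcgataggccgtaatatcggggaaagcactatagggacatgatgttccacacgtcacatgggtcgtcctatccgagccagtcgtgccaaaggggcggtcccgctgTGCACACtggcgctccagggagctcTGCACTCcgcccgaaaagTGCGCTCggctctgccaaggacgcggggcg
Mt2 promoter, chr8:94172368-94172667, plus strand: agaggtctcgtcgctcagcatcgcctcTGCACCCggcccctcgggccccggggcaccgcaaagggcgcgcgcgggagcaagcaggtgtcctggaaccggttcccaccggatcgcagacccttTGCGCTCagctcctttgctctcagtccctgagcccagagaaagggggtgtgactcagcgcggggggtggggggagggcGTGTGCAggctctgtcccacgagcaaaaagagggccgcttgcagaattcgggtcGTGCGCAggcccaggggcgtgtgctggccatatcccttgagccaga

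The Mt1 window holds 3 cores, which start at -23, 3 and 21 relative to the start and do not overlap. The Mt2 window holds 4, of which those starting at -223 and -128 read on the plus strand and those at -50 and 5 on the minus strand. Of 27025 RefSeq windows of this length, 25.6% hold at least 1 core, 2.0% at least 3 and 0.503% at least 4. The Mt3 and Mt4 windows hold 1 each. The core of the antioxidant response element, TGACNNNGC, occurs in the Mt2 window at -79 and not in the Mt1 window, against 12.5% of all windows. The SP1 box GGGCGG occurs 3 times in the Mt1 window and 1 of these, at 9 on the minus strand, overlaps a metal response element core by 1 base; 35.9% of all windows hold this box. The glucocorticoid receptor half-site TGTTCT (19.02% of windows), the E-box CACGTG (7.24%) and the TATA box TATAAA (14.2%) were not found in either window. Sequence outside the windows was not searched, so the genes may hold such sites, and further metal response element cores, beyond them.

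The Mt1 signal rests on a probe from the coding sequence, printed 10 times on each array. In its frame, 6 of 19 codons are for cysteine, and capitals mark them.
Mt1 probe A_51_P294979: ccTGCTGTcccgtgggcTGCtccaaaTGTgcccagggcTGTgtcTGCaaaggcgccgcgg
Mt2 was read by 1 spot of 1 probe, A_51_P246317. A second Mt1 probe, A_52_P423810, was a single dim spot and is described apart. Each value below is the log2 of the spot's processed intensity minus the 75th percentile of that array, so 1 unit is a doubling and 0 is the array's upper quartile. A level of one probe is not set against a level of another.

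Across arrays, the 75th percentile of intensity lay between 248.4 and 608.1, and 51.7% to 61.3% of spots were well above background. Known EDL transcripts (12 of 14 listed, such as Ckm, Acta1 and Myh4) stood between the 88.9th and the 99.9th percentile of mean level. Each of the 5 slides held 1 array of every group, always at that group's own position, so position on the slide and group membership cannot be told apart. In the outer rows and last columns, 2.01% to 3.38% of spots on HS arrays read over 3 units below the spot's median over all arrays, against 0.018% to 0.347% on the arrays of the other groups; Casq1, read there, differed by -10.03 units in HS against ES. Results are therefore also given without these edge spots. S100a9, a neutrophil marker, was at 7.31 on HS 2 and 6.22 on EV 1, against at most 0.72 on the other 18 arrays, and Slc4a1, a red blood cell marker, was at 2.96 and 2.25 on the same arrays. Differences are given without these 2 arrays as well. Hdac4 averaged 1.24 ± 0.56 in HS, 0.95 ± 0.32 in ES, 1.24 ± 0.23 in HV and 0.95 ± 0.23 in EV, and Hdac5 averaged 3.46 ± 0.21, 3.47 ± 0.17, 3.18 ± 0.11 and 3.19 ± 0.35 in the same order (SD, n = 3 to 5), and neither was called in any comparison; whether these mouse probes read the vectors' transcripts is not given in the sources used here.

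Mt1 was highest in HS, lowest in EV, and between them in ES and HV. In HS it was 5.78, 4.58, 4.52, 5.29 and 4.63 in replicates 1 to 5, a mean of 4.96 ± 0.55 (SD, n = 5). In ES it was 5.04, 3.82, 4.17, 3.84 and 3.55, a mean of 4.09 ± 0.58. In HV it was 3.65, 4.52, 3.96, 3.75 and 2.98, a mean of 3.77 ± 0.56. The high arrays were HS 1 and HS 4 within HS, ES 1 within ES and HV 2 within HV, and HV 5 was the low array of its group. In EV it was 3.14, 3.10, 3.52, 2.17 and 3.03, a mean of 2.99 ± 0.50, with EV 4 as the low array. The ordering of ES and HV is not separated by their spread, since their means differed by less than either SD.

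Mt2 had the same order of group means and a wider spread. In HS it was 6.84, 5.53, 4.80 and 5.32 in replicates 1 to 4, a mean of 5.62 ± 0.86 (SD, n = 4). The spot on HS 5 was marked as non-uniform by the scanner software and was left out; its value was 4.29. In ES it was 6.40, 4.53, 4.56, 4.11 and 3.24, a mean of 4.57 ± 1.15. ES 1 stood far above the other ES arrays, and HS 1, the other leg of that animal, was the highest of all arrays. In HV it was 3.93, 5.21, 4.204, 4.295 and 2.09, a mean of 3.95 ± 1.14. In EV it was 3.16, 3.79, 3.08, 1.42 and 1.90, a mean of 2.67 ± 0.98. HV 5 and EV 5, 2 legs of 1 animal, were both low. On EV 5, 0.923% of spots away from the array's edge read over 3 units below their median over all arrays. On the other arrays this share was 0.011% to 0.251%. Whether the single Mt2 spot of EV 5 was affected was not tested.

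**Figure D1:**
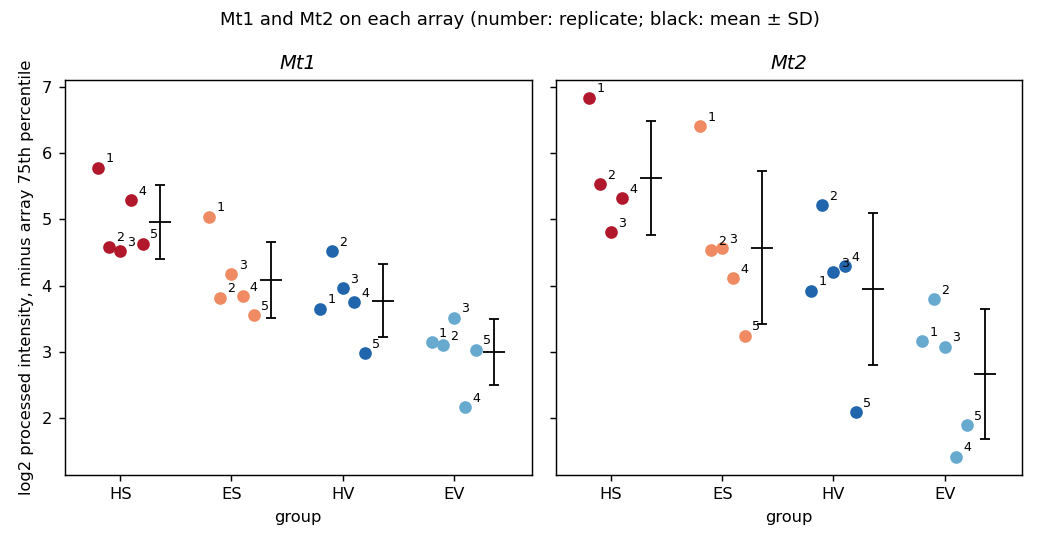
Mt1 (left) and Mt2 (right) on each array, as log2 processed intensity minus the array's 75th percentile, for HS, ES, HV and EV. Points are arrays, numbers are replicates and black bars are the mean ± SD. Mt1 means were 4.96, 4.09, 3.77 and 2.99 and Mt2 means were 5.62, 4.57, 3.95 and 2.67 in this order of groups, and the HS and EV points do not overlap for either gene.

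For both genes, every HS array lay above every EV array. The lowest HS value was 4.52 for Mt1 and 4.80 for Mt2, against highest EV values of 3.52 and 3.79. The means differed by 1.97 units for Mt1, or 3.92-fold, and by 2.95 units for Mt2, or 7.74-fold. Of all genes tested, 2.14% had every HS array above every EV array. The genes were chosen on these values, so nothing is read from that share. In whole muscle, a larger share of cells that express a gene and more RNA of it per cell cannot be told apart.

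The dnHDAC4/5 vectors were compared with the empty vector in the 2 legs of the same animal. In vehicle animals, Mt1 was 0.78 ± 0.33 units higher in HV than in EV (SE, n = 5 each), or 1.72-fold. This SE and the others given for group differences are from the fit of group means, which does not pair the legs. The leg differences in animals 1 to 5 were 0.50, 1.42, 0.44, 1.58 and -0.05. Thus 4 of 5 animals had the higher Mt1 value in the dnHDAC4/5 leg, and animal 5 had nearly equal legs. Mt2 was 1.28 ± 0.62 units higher, or 2.42-fold, with leg differences of 0.76, 1.42, 1.13, 2.88 and 0.19. All 5 animals had the higher Mt2 value in the dnHDAC4/5 leg, where 3.4% of the genes read in all pairs were higher in 5 of 5. HV and EV values overlapped for both genes.

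In Scriptaid animals, Mt1 was 0.88 ± 0.33 units higher in HS than in ES, or 1.83-fold. The leg differences in animals 1 to 5 were 0.74, 0.76, 0.34, 1.45 and 1.08. All 5 had the higher value in the dnHDAC4/5 leg, where 10.2% of the genes read in all pairs were higher in 5 of 5. Mt2 was 1.05 ± 0.66 units higher, or 2.07-fold, from 4 HS and 5 ES arrays. In the 4 animals with both legs read, its leg differences were 0.43, 0.99, 0.24 and 1.20, which average 0.72 ± 0.45 (SD). The value from all arrays is larger because it counts ES 5, a low array whose partner HS 5 was left out. HS and ES overlapped for both genes.

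**Figure D2:**
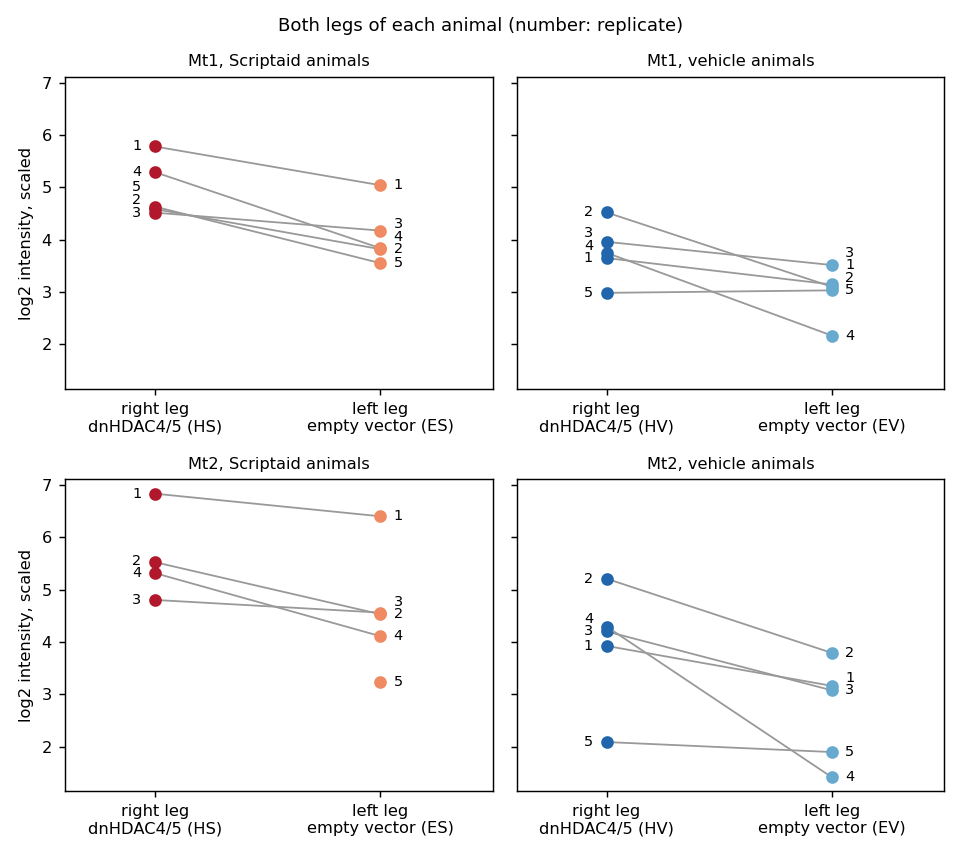
Mt1 (top) and Mt2 (bottom) in both legs of each animal, on the log2 scale of the other plots, with Scriptaid animals on the left and vehicle animals on the right. Each line is 1 animal and runs between its dnHDAC4/5 leg and its empty-vector leg; ES 5 has no line for Mt2 because HS 5 was left out. The dnHDAC4/5 leg is the higher one in 9 of 10 animals for Mt1 and in 9 of 9 for Mt2, genes that were chosen on these values.

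Over all animals, the dnHDAC4/5 leg was higher in Mt1 in 9 of 10, by 0.83 ± 0.54 on average (SD), and in Mt2 in 9 of 9, by 1.03 ± 0.82. The share of all genes with such counts was not computed. The pair was chosen on these values, so nothing is read from the counts. The vector difference in Scriptaid animals minus that in vehicle animals was 0.09 ± 0.47 for Mt1 and -0.23 ± 0.91 for Mt2 (SE). These come from the fit of group means, which does not pair the legs. In that fit both values are smaller than their errors, and the errors are wide enough to hold departures as large as the vector difference itself. By paired legs, the Mt2 difference averaged 0.72 in 4 Scriptaid animals and 1.28 in 5 vehicle animals. Under alternatives other than leaving out 1 array, the Mt2 value went down to -0.61. An error for the paired contrast was not computed.

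Scriptaid was compared with vehicle between animals, and arrays of the same number shared a slide. In empty-vector legs, Mt1 was 1.09 ± 0.33 units higher in ES than in EV, or 2.13-fold. Within slides 1 to 5 the difference was 1.90, 0.72, 0.66, 1.67 and 0.52. The 2 groups did not overlap, but only narrowly, with 3.55 on ES 5 and 3.52 on EV 3; 0.719% of genes had every ES array above every EV array. Mt2 was 1.90 ± 0.62 units higher, or 3.74-fold, with differences of 3.24, 0.74, 1.49, 2.70 and 1.35 within slides. ES and EV overlapped for Mt2, through ES 5. Both genes were higher in ES on 5 of 5 slides, as were 5.18% of the genes read in all pairs.

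In dnHDAC4/5 legs, Mt1 was 1.19 ± 0.33 units higher in HS than in HV, or 2.28-fold. Within slides the difference was 2.13, 0.06, 0.56, 1.54 and 1.65. Slide 2, which holds HV 2, the highest HV array, had nearly equal values. Mt2 was 1.68 ± 0.66 units higher, or 3.20-fold, with differences of 2.91, 0.32, 0.60 and 1.02 on slides 1 to 4, which average 1.21. The value from all arrays also counts HV 5, the lowest HV array, whose slide partner HS 5 was left out. Mt1 was higher in HS on 5 of 5 slides, as were 8.35% of the genes read in all pairs. The groups overlapped for both genes. HS is in this comparison and in that with ES, and EV is shared by both comparisons in which it stands, so these differences are not independent of one another.

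Averaged over both legs, Mt1 lay between 4.09 and 5.41 in the 5 Scriptaid animals and between 2.96 and 3.81 in the 5 vehicle animals. The mean of both Mt2 legs lay between 4.68 and 6.62 in the 4 Scriptaid animals with both legs read and between 1.99 and 4.50 in the vehicle animals. The Mt1 ranges did not overlap; over genes with means for at least 4 animals of each injection, 0.929% had every Scriptaid mean above every vehicle mean. For Mt2 this held only with the fifth Scriptaid animal left out. With its marked HS 5 spot kept, that animal's mean was 3.77, within the vehicle range. Without HS 2 and EV 1, the arrays with blood cell markers, Mt1 differed by 0.82 in HV against EV, 0.97 in HS against ES, 1.13 in ES against EV and 1.28 in HS against HV. Mt2 differed by 1.40, 1.08, 2.03 and 1.71 in the same order.

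The 10 spots of the bright Mt1 probe show the spread within an array. The SD between spots of 1 array was 0.05 to 0.40, with a median of 0.11, against a pooled SD of 0.55 between arrays of a group. Of 200 spot values, 16 were marked by the scanner software and left out, 9 of them on HS arrays. No spot of a member was saturated. Taken spot by spot, the difference between HV and EV was 0.65 to 0.85, between HS and ES 0.67 to 1.15, between ES and EV 0.85 to 1.16 and between HS and HV 0.98 to 1.51. Of the 10 spots, 2 lay in the edge zone of the array. Mt2 had no repeat spots, and its pooled SD between arrays was 1.04.

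**Figure D3:**
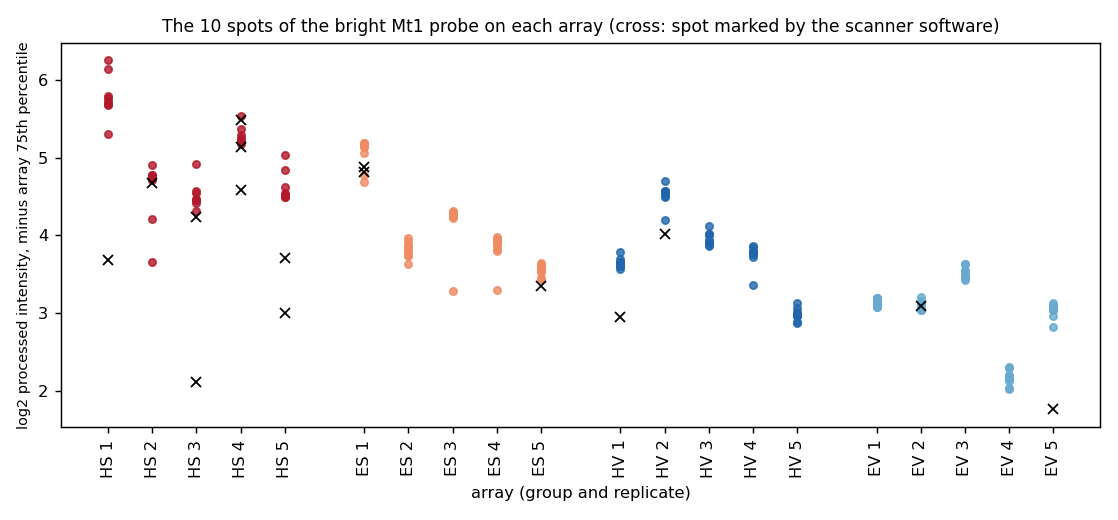
The 10 spots of the bright Mt1 probe on each of the 20 arrays, as log2 processed intensity minus the array's 75th percentile. Circles are spots that were used and crosses are the 16 spots that were marked and left out. The spots of an array lie close together compared with the distance between arrays of a group, and most crosses below their array's cluster are on HS arrays.

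The second Mt1 probe did not follow the first. It read -4.43, -2.54, -0.84, -1.93 and -1.70 in HS and -3.98, -3.66, -1.97, -3.43 and -3.18 in ES. It read -3.77, -1.29, -3.20, -3.14 and -3.88 in HV and -3.78, -3.65, -4.02, -3.79 and -3.60 in EV. It was well above background on 4 of 5 HS, 5 of 5 ES, 5 of 5 HV and 3 of 5 EV arrays, so its EV level is close to the limit of detection. Its group means were -2.28 ± 1.34 in HS, -3.24 ± 0.77 in ES, -3.06 ± 1.04 in HV and -3.76 ± 0.16 in EV (SD, n = 5), so HS was again highest and EV lowest, but HV stood above ES. The correlation of the probes across 20 arrays was r = 0.37, and -0.11 after each group's mean was subtracted. Array by array it therefore carried little of what the bright probe showed: HS 1 was the highest array of the bright probe and the lowest HS array of the dim one.

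Mt1 and Mt2 went together across arrays. Over the 19 arrays with both genes, Pearson's r was 0.94 and Spearman's rho 0.97, and r was 0.88 after each group's mean was subtracted. Thus arrays of the same group that were high in Mt1 were high in Mt2, such as HS 1, ES 1 and HV 2, and EV 4 was the lowest in both. Both values of an array share its RNA and its scaling. Probes of such similar genes may bind each other's transcript; how far they do was not tested.

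**Figure D4:**
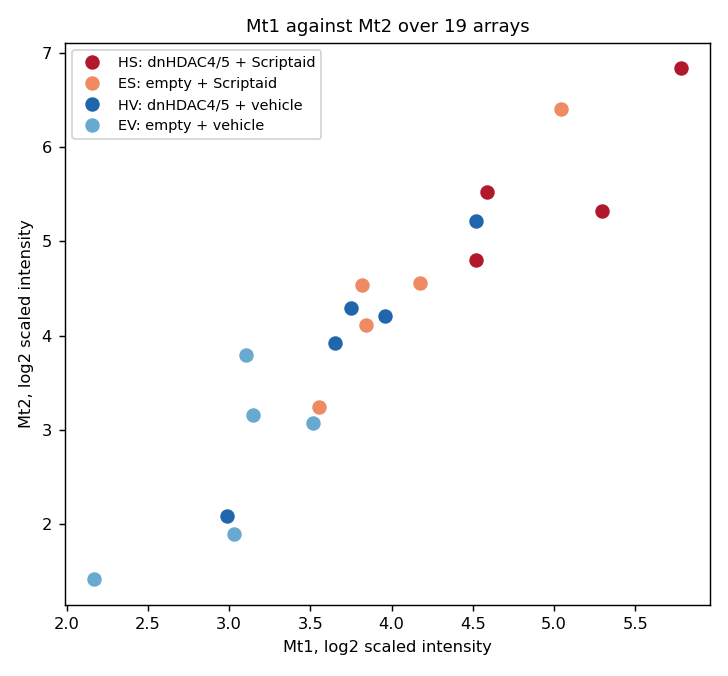
Mt2 against Mt1 on 19 arrays, both as log2 processed intensity minus the array's 75th percentile, coloured by group. The points run along 1 line (r = 0.94), and the groups are spread along it with overlap: ES 1 lies above HS 2 and HS 3 in both genes, and HV 5 lies below EV 1, EV 2 and EV 3.

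The other metallothioneins did not show this order. Mt3, known mainly from brain, averaged -2.31 ± 0.43 in HS, -2.61 ± 0.19 in ES, -2.34 ± 0.22 in HV and -2.39 ± 0.32 in EV (SD, n = 5), and was well above background on all arrays. Its differences were 0.05 ± 0.19 for HV against EV, 0.29 ± 0.19 for HS against ES, -0.21 ± 0.19 for ES against EV and 0.03 ± 0.19 for HS against HV, none of them called (limma, adjusted p 0.626 or more). Over all genes, 0% were called in both comparisons with EV, 1.24% in HS against ES and 1.29% in HS against HV. The lack of calls therefore does not set Mt3 apart from Mt1 and Mt2, which are described here without a test. The correlation of Mt3 with Mt1 over 20 arrays was r = 0.11. Mt4, known from stratified epithelia, has 2 probes. One was well above background on no array, and the other averaged -3.87 in HS, -4.19 in ES, -4.39 in HV and -4.12 in EV, near the limit of detection. Of 11 listed genes of the region, 8 were measured, Mt3 and Mt4 included, and none was called in any comparison, beside the same low shares over all genes. Bbs2, on the Mt4 side, and Nup93, on the Mt1 side, differed by -0.34 ± 0.16 and 0.22 ± 0.18 in HV against EV, and by 0.01 ± 0.16 and -0.14 ± 0.18 in HS against ES (SE). The region's smallest p was that of Gnao1, a G protein subunit, at -0.65 ± 0.20 in HV against EV (adjusted p = 0.811).

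Other genes were tested in the fit across all genes with limma and Benjamini-Hochberg adjustment, and called at an adjusted p under 0.05. For HV against EV, 0 of 15719 genes were called (0% of those tested), with 729 at an unadjusted p under 0.05. For ES against EV the count was also 0 (0%), with 603 at an unadjusted p under 0.05. For HS against ES, 195 were called (1.24%), and for HS against HV, 202 (1.29%). Of these, 84 were higher and 111 lower in HS than in ES, and 100 were higher and 102 lower in HS than in HV. With normexp background the split was 13 higher and 218 lower for HS against ES and 9 and 200 for HS against HV, and with median scaling it was 29 and 96, and 30 and 98. Without edge spots the counts were 3 of 14594 (0.0206%) and 1 (0.00685%). With the replicate number as a block they were 340 and 362. HV and EV, and HS and ES, are legs of the same animals. Animal was therefore also entered as a random block, which gave 4 calls for HV against EV and 685 for HS against ES. The calls in the lists below are from the fit without this block. All the lists below were chosen with earlier results of these data known and give no independent evidence of a direction. In this fit at most 1.29% of genes were called in a comparison, so a short list without a call is not set apart from all genes.

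Among the genes that sense and move zinc, few stood apart. Of 25 listed, 19 were measured. In HS against ES and in HS against HV 1 was called, Slc39a11, a zinc importer, by 0.94 ± 0.15 (adjusted p = 0.00194) and 0.66 ± 0.15 (adjusted p = 0.0258). Its probe lies in the edge zone, and without edge spots no member was called. The list's medians were -0.02 for HV against EV, -0.02 for HS against ES, -0.04 for ES against EV and 0.07 for HS against HV, beside medians over all genes of -0.00, 0.03, 0.01 and 0.04. Mtf1, which encodes the factor that drives Mt1 and Mt2 by zinc and was named for that role after its values were seen, averaged 1.14 ± 0.38 in HS, 1.19 ± 0.12 in ES, 1.15 ± 0.15 in HV and 1.063 ± 0.21 in EV (SD, n = 5). Its differences lay between -0.05 and 0.13 and none was called.

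Slc30a1 encodes the zinc exporter ZnT1, another known target of MTF-1. It averaged 0.02 ± 0.44 in HS, 0.37 ± 0.20 in ES, 0.40 ± 0.16 in HV and 0.49 ± 0.20 in EV (SD, n = 5). The group with the highest Mt1 and Mt2 thus had the lowest mean of Slc30a1, but the groups overlapped. Its differences were -0.34 ± 0.17 for HS against ES (adjusted p = 0.470) and -0.37 ± 0.17 for HS against HV (adjusted p = 0.451), and -0.12 ± 0.17 for ES against EV. Slc39a3, a zinc importer, was the member of smallest p in both comparisons with EV, at 1.14 ± 0.43 for HV (adjusted p = 0.876) and 1.19 ± 0.43 for ES (adjusted p = 1). It averaged 0.78 in HS, 0.75 in ES and 0.70 in HV, while EV ran from -2.08 to 1.02. Slc39a7, which releases zinc from the endoplasmic reticulum, was 0.34 ± 0.10 higher in HS than in ES (adjusted p = 0.134).

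Genes of copper and iron handling, whose metals also bind or free metallothionein, had no called member among 11 and 8 measured in any comparison. Over all genes, 0% to 1.29% were called, so this says little about lists so short. The copper list had medians between 0.05 and 0.18 over the 4 comparisons and the iron list between -0.07 and 0.13. The copper chaperone Atox1 was 0.39 ± 0.20 higher in HV than in EV and 0.39 ± 0.22 higher in HS than in ES (adjusted p = 1.0 and 0.551). The ferritin light chain Ftl1 was 0.46 ± 0.17 higher in HS than in ES (adjusted p = 0.228). Of the 19 measured oxidative stress genes that NRF2 drives, none was called either. Their medians were 0.09 for HV against EV, 0.14 for HS against ES, -0.01 for ES against EV and 0.10 for HS against HV. Nfe2l2, which encodes NRF2, was 0.33 ± 0.11 higher in HS than in ES (adjusted p = 0.171), and Srxn1, a sulfiredoxin, 0.73 ± 0.36 (adjusted p = 0.449).

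Glucocorticoid targets, of which 20 of 23 were measured, were mostly higher with Scriptaid. In HS against HV all 20 differences were above 0, with a median of 0.52 beside 0.04 over all genes, and 3 were called as higher. These were Per1, a clock gene, by 1.32 ± 0.18 (adjusted p = 0.000549), Fkbp5, a feedback inhibitor of the glucocorticoid receptor, by 1.14 ± 0.20 (adjusted p = 0.00434), and Klf15, a regulator of amino acid use, by 0.84 ± 0.18 (adjusted p = 0.0199). Per1's probe touches the edge zone. Without HS 2 and EV 1 the count was also 3, with Fkbp5 at 1.23 (adjusted p = 0.00267). The probes of Fkbp5 and Klf15 have no edge spot, and their differences were the same with edge spots left out, but the fit over the other genes then gave adjusted p = 0.0625 and 0.175, so that no member was called. In ES against EV 17 of 20 differences were above 0, with a median of 0.46 beside 0.01, and none was called; Fkbp5 was the largest at 1.04 ± 0.20 (adjusted p = 0.264). Foxo1, a transcription factor of muscle wasting, differed by 0.60 ± 0.17 in ES against EV and by 0.59 ± 0.17 in HS against HV (adjusted p = 1.0 and 0.104). Tsc22d3, another listed target, differed less, by 0.26 ± 0.15 in ES against EV and by 0.07 ± 0.15 in HS against HV.

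For the vectors, the medians of the glucocorticoid list were 0.04 in HV against EV and 0.08 in HS against ES, and no member was called. The members differed among themselves. Several, among them Errfi1, Trim63, Cebpd and Fbxo32, had the group order of Mt1, and the share of all genes with this order was not computed. Fbxo32, the muscle ubiquitin ligase atrogin-1, had means of 4.35 in HS, 3.84 in ES, 3.79 in HV and 3.32 in EV. It differed by 0.47 ± 0.19 in HV against EV and 0.51 ± 0.17 in HS against ES, and by 0.52 ± 0.17 in ES against EV and 0.55 ± 0.19 in HS against HV (adjusted p = 0.940, 0.201, 1.0 and 0.224). Per1 differed by 0.65 ± 0.18 in HS against ES (adjusted p = 0.0936) and by -0.02 ± 0.18 in HV against EV. Tsc22d3 went the other way, by -0.34 ± 0.15 in HS against ES (adjusted p = 0.376) and by -0.14 ± 0.15 in HV against EV. Fkbp5 showed the split by injection array by array. It lay between -0.57 and 0.16 in HS and between -0.56 and 0.17 in ES, against -1.74 to -0.997 in HV and -1.85 to -0.99 in EV. All Scriptaid legs were above all vehicle legs. Over all genes, 1.42% had every HS array above every HV array and 0.719% every ES array above every EV array. The share for both together was not computed. Fkbp5 is from a list chosen with earlier results known, so nothing is read from its separation. Legs with and without dnHDAC4/5 had nearly the same means of Fkbp5, -0.22 and -0.30 in Scriptaid animals and -1.36 and -1.35 in vehicle animals. Mt1 and Mt2 had higher means with Scriptaid and with dnHDAC4/5, as given above; whether they differ from Fkbp5 in this was not tested. Nr3c1, the glucocorticoid receptor, lay between 2.40 and 2.85 on all arrays on which it was read.

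Of the 15 measured targets of cytokines and STAT3, Il6st, the shared receptor subunit of the IL-6 family, was called as higher in HS than in ES, by 0.74 ± 0.15 (adjusted p = 0.0142). Its probe has no edge spot, and with edge spots left out its difference was the same at adjusted p = 0.107. Myc was 0.93 ± 0.24 higher in HS than in ES (adjusted p = 0.0687) and 0.70 ± 0.24 higher in HV than in EV (adjusted p = 0.811). The list's medians were 0.39 for HV against EV, 0.00 for HS against ES, 0.18 for ES against EV and 0.11 for HS against HV. Of 11 measured heat shock genes, Dnajb1, a co-chaperone, was called in HS against ES by 0.81 ± 0.19 (adjusted p = 0.0453) and in HS against HV by 0.87 ± 0.19 (adjusted p = 0.027). Its probe has no edge spot either, and with edge spots left out the differences were the same at adjusted p = 0.189 and 0.175. Hspa1a, the inducible HSP70, averaged 4.48 ± 1.53 in HS, 1.51 ± 0.66 in ES, 3.10 ± 2.07 in HV and 1.55 ± 1.31 in EV, a pattern by vector with a wide spread (2.97 ± 0.87 for HS against ES, adjusted p = 0.117). Hspa1b, its near-identical copy, differed by 3.01 ± 1.02 in HS against ES, and the probes may read both transcripts. Of the 11 histone deacetylases, all measured, none was called in any comparison.

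**Figure D5:**
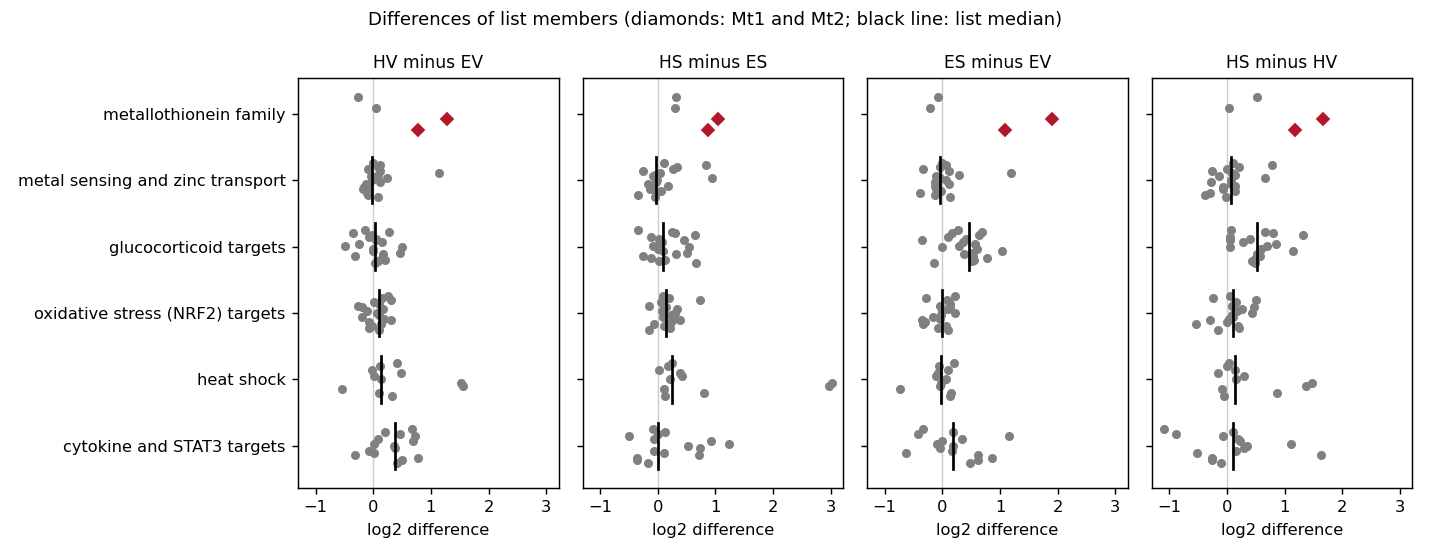
Log2 differences of the measured members of 6 gene lists in 4 comparisons, HV minus EV, HS minus ES, ES minus EV and HS minus HV. Grey circles are genes, red diamonds are Mt1 and Mt2 (0.78 to 1.90 in these panels), and black lines are list medians, left out for the metallothionein family. The glucocorticoid targets are shifted to the right in ES minus EV and HS minus HV, with medians of 0.46 and 0.52, and lie around 0 in HV minus EV.

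The genes most like the mean of Mt1 and Mt2 were sought among 13862 genes read on the same 19 arrays. Genes with an edge spot, clone names and the pair itself were counted in this number but passed over in the 10 named. Dio3, the deiodinase that inactivates thyroid hormone, had the highest Pearson's r, 0.88. Myrip, a motor adaptor, Csrnp1, a nuclear protein, Fam46b, Fkbp5, Pkp4, a plakophilin, Foxo1, the phosphatase Ptpn1, Edem1, of endoplasmic reticulum quality control, and the elongation factor Ell2 followed, at 0.83 to 0.80. Of the 13862 genes, 5% had r above 0.468. After group means were subtracted, Fkbp5 led with 0.83, before Dio3 with 0.82, Ugdh, which makes UDP-glucuronate, with 0.81 and Foxo1 with 0.79. Ppl, Bmp8a, Pid1, Gdap5, Vgll3 and Gfpt2 followed, between 0.76 and 0.70. Dio3, Fkbp5 and Foxo1 were thus in both sets of 10. The points share arrays, slides and scaling, and these values are descriptions.

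Dio3 averaged -2.43 ± 0.98 in HS, -2.59 ± 0.95 in ES, -3.45 ± 0.76 in HV and -3.69 ± 0.44 in EV (SD, n = 5). It differed by 1.09 in ES against EV and by 1.02 in HS against HV, and by 0.24 in HV against EV and 0.17 in HS against ES. Csrnp1 averaged 1.01 ± 0.48 in HS, 0.49 ± 0.20 in ES, 0.21 ± 0.46 in HV and -0.12 ± 0.42 in EV. Dio3, Csrnp1 and Ugdh all had the group order of Mt1. Csrnp1 differed more by vector than Dio3, by 0.32 in HV against EV and by 0.52 in HS against ES. Ugdh had similar group means, 1.503 in HS, 1.14 in ES, 1.05 in HV and 1.01 in EV, so its likeness lay between arrays of a group.

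Markers of other cells were summed per array as linear intensity over the 75th percentile, over members read on all arrays outside the edge zone. Macrophage markers (8 of 13 listed) summed to 5.12 to 19.1 in HS, 5.46 to 13.3 in ES, 6.89 to 13.6 in HV and 4.79 to 12.2 in EV. Adipocyte markers (6 of 9) summed to 109.6 to 266.2 in HS, 71.3 to 191.5 in ES, 93.9 to 142.1 in HV and 85.5 to 164.5 in EV. Tendon markers (4 of 5) summed to 10.1 to 36.8 in HS, 5.39 to 13.5 in ES, 19.6 to 48.4 in HV and 9.38 to 39.7 in EV. Over 19 arrays, the correlation of such sums with the mean of Mt1 and Mt2 ran from -0.48 for endothelial markers to 0.33 for the neutrophil marker S100a9, with macrophage markers at 0.32 and adipocyte markers at 0.21. Fibroblast (5 of 8) and endothelial (5 of 8) sums ran over 13.0 to 29.1 and 13.4 to 22.7 in HS, 11.2 to 24.5 and 17.2 to 25.2 in ES, 16.2 to 32.1 and 16.1 to 25.9 in HV, and 12.6 to 25.9 and 17.0 to 26.8 in EV. Schwann (6 of 8) and satellite cell (3 of 6) sums ran over 2.06 to 8.85 and 6.20 to 10.6 in HS, 2.37 to 5.46 and 6.26 to 7.47 in ES, 1.59 to 5.43 and 6.24 to 10.7 in HV, and 2.53 to 15.5 and 5.82 to 7.83 in EV. T cell markers (2 of 7) summed to under 0.42 on every array, and red blood cell markers (2 of 6) to 16.9 on HS 2 and 11.3 on EV 1 against at most 2.41 elsewhere. Of 8 neutrophil markers, 6 did not pass the filter on dim probes.

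By gene rather than by sum, all 8 measured adipocyte markers were above 0 in HS against ES (median 1.94) and in HS against HV (median 0.97), with medians of -1.27 in ES against EV and -0.29 in HV against EV and none called. All 5 tendon markers were below 0 in ES against EV (median -1.11) and in HS against HV (median -1.49), none of them called. Of 12 macrophage markers, 11 were above 0 in HV against EV (median 0.20) and 11 in HS against ES (median 0.30), again with none called. Of 8 Schwann markers, 7 were below 0 in HV against EV (median -0.84), 4 of them at an unadjusted p under 0.05 and none called. In HS against ES, 4 were above and 4 below 0 (median -0.01), and in HS against HV 7 were above 0 (median 0.57). In HS against ES 1 tendon marker was called as higher and 1 Schwann and 1 endothelial marker as lower, beside 1.24% of all genes called. In HS against HV and in the interaction 1 endothelial marker was called as lower, beside 1.29% and 0.178% of all genes. No marker was called without edge spots. The part of these cells in the Mt1 and Mt2 differences was not tested.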

How the data were processed

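Total RNA from EDL muscle was labelled with Cy3 (100 ng input, per the labels' protocols) and hybridised to 1-colour Agilent arrays of 45018 spots, 43379 of them not controls. Per the file headers and the submitters' processing notes, Agilent Feature Extraction 9.5.1.1 corrected each spot for background and for a trend across the slide, which gave the processed intensity that the authors deposited. The series matrix deposited by the authors holds a ratio: set against the scanner files, it equals that intensity over 1 constant per array. It was used only as an alternative. The genome build of the probe positions is not given in the sources used here.

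From the log2 of each intensity, the log2 of that array's 75th percentile was subtracted. The 12539 spot values that the scanner software marked (non-uniform, or outlier of its population) were dropped, spots of a probe were averaged, and probes well above background on at least 5 arrays with at least 3 arrays left per group were kept. A gene was read by its brightest probe. A model of 4 group means was fitted with limma 3.58.1 in R 4.3.3, with two-sided tests, Benjamini-Hochberg adjustment over 15719 genes and a threshold of 0.05, and was tested on simulated data. The 5 comparisons were HV-EV, HS-ES, ES-EV, HS-HV and the interaction. Likeness, spots and promoters were computed in Python 3.11.15. The number of arrays limits the precision. Each array of a group is a separate animal. The alternatives were other background corrections, scalings, probe rules and filters, blocks for slide and animal, no edge spots and arrays left out.

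The members, the 11 pathway lists and the 10 marker lists were chosen with earlier results of these data known. Named genes were every probe of the pair, its family, in each list the called members or else up to 3 of smallest p, and the 10 most alike genes; Mtf1, Myc, S100a9, Slc4a1 and some list members described for their role fall outside this rule and were named after their values were seen. Same-numbered legs of 1 injection came from 1 animal, per the labels; deviations from group means correlated at 0.03 to 0.41 (HV and EV) and 0.20 to 0.35 (HS and ES). Of 28356 probes with a RefSeq accession, 27584 matched the GRCm38.p6 gene table, used for current names. Promoters are RefSeq's, all 4 family members matched.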

Additional observations from a re-analysis of the deposited data

Results flagged for a closer look

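The second, dim Mt1 probe read -1.29 on HV 2, far above the other 4 HV arrays, of which the next was at -3.14; the gap was 0.712 of the group's range. HV 2 was also the highest HV array of the bright Mt1 probe and of Mt2. This was 1 of 24 groups of arrays examined for a lone high or low value, and chance alone gives about 1 in 20.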

How the results depend on the processing

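The 4 single differences of Mt1 and Mt2 kept their sign under all alternatives run, and moved by less than the SD between arrays except 1: Mt1 in ES against EV was 0.52 by the dim probe. With each array left out in turn, Mt1 differed by 0.57 to 0.98 in HV-EV, 0.67 to 1.11 in HS-ES, 0.85 to 1.23 in ES-EV and 0.98 to 1.38 in HS-HV, and Mt2 by 0.96 to 1.74, 0.65 to 1.51, 1.44 to 2.23 and 1.21 to 1.99 in the same order. The interaction changed sign among these, between -0.11 and 0.33 for Mt1 and between -0.69 and 0.23 for Mt2. With the replicate block (slide), Mt2 differed by 0.72 in HS-ES and 1.35 in HS-HV, since HS 5 was missing. The block made no call for HV-EV or ES-EV.

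Counts of called genes moved more. Leaving out edge spots gave 3 for HS-ES, 1 for HS-HV and 0 for the interaction (28 otherwise). Median scaling gave 125 and 128 for HS-ES and HS-HV, and the replicate block 340 and 362. Animal as a random block gave 4 for HV-EV, 685 for HS-ES and 64 for the interaction; normexp background gave 83 for the interaction. No filter on dim probes gave 322 for HS-ES and 1 for ES-EV. Without HS 2 and EV 1, an alternative chosen after seeing the data, the counts were 371 for HS-ES, 1 for ES-EV, 480 for HS-HV and 50 for the interaction. Leaving out single arrays gave 0 to 3 for HV-EV (3 without HV 5), 112 to 380 for HS-ES (112, 116 and 117 when ES 1, ES 2 and ES 4 in turn were dropped, 127 when HS 5 was, 380 when HS 2 was), 0 to 1 for ES-EV (1 without EV 1 or EV 3), 133 to 476 for HS-HV (133 without HV 2, 476 without HS 2) and 21 to 57 for the interaction (57 without HS 2). The cause was not tested. The 3 glucocorticoid targets called in HS-HV were 2 with normexp background, and 2 to 4 with single arrays left out. The edge zone was drawn after seeing the data. Mt2 has 1 spot, and the dim Mt1 probe is near background, which limits both.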
